A study of Brassica napus with 2 samples.

Results

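Leucine-rich repeat receptor kinases were followed in whole *Brassica napus* (oilseed rape) seeds as the unigenes, or assembled transcripts, that had an assigned *B. napus* gene and whose best Swiss-Prot description named an LRR receptor-like kinase, a leucine-rich repeat receptor, a somatic embryogenesis receptor kinase, ERECTA or CLAVATA1. This rule took 288 of the 50366 unigenes in the table, or 288 of the 28771 that had an assigned gene. They stood for 206 genes and carried 99 different descriptions, and 202 of them, including some described as inactive, were named by an *Arabidopsis* locus such as At1g29720. The seeds came from Cy2B, a brown-seeded line homozygous for the recessive *y* allele (yy), and from Cy2Y, its yellow-seeded near-isogenic partner (YY), in which the dominant allele at the *Ecy1* locus gives the yellow seed coat. Both lines were selfed from 1 heterozygous plant and grown in the field, and whole seeds were taken at 26 days, which the labels count after flowering. There was 1 library per line, with 23575447 reads assigned to unigenes in brown seeds and 23236592 in yellow seeds. No spread between replicates could therefore be measured, every test below compares these libraries and not the lines, and every interval covers counting error only.

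Leucine-rich repeat receptor kinases sit in the plasma membrane of plant cells, with an outer repeat domain that binds a peptide or steroid signal and an inner kinase domain that passes the signal on. Many act with SERK co-receptors, which join the receptor when its ligand binds. In *Arabidopsis*, members of the family set organ growth, stem cell number, vascular and embryo patterning, the cuticle of the embryo and the response to microbes, and a few are named inactive because their kinase domain lacks residues needed for catalysis. Whole seeds mix seed coat, endosperm and embryo, so fewer cells of a type and less RNA per cell cannot be told apart in these data.

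The descriptions were set against the Pfam domains of the table, which the rule did not use. A kinase domain or a leucine-rich repeat was annotated on 223 of the 288 unigenes (77.4%), against 5.08% of the other unigenes with an assigned gene. Both domains were annotated on 86 of them. All 88 unigenes of at least 2000 bp carried one of the domains, and 75 of these carried both. No Pfam domain was given for 52, and 13 carried only other Pfam domains. The unigenes with neither a kinase domain nor a repeat had a median length of 328 bp. The unigenes were between 203 and 5296 bp long, 27 assembly components held more than 1 of them, and 50 genes were covered by more than 1 unigene, up to 7. Pieces of a receptor gene were thus often counted separately, and reads of near-identical copies on the A and C chromosomes may have been shared between them.

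The receptors were expressed at low to moderate levels. Together they took 0.586% of the reads in brown seeds (95% Wilson interval 0.583 to 0.589) and 0.636% in yellow seeds (0.632 to 0.639). The level per length, in RPKM (reads scaled to unigene length and to the reads of the library), was at least 1 in both libraries for 171 unigenes, at least 10 in both for 52, and at least 100 in either for only 4. The 103 unigenes with fewer than 20 reads over both libraries were short, with a median length of 302 bp against 1888 bp for the 185 with at least 20. Reads in 1 library only were found for 61 unigenes, all of them among those with fewer than 20 reads, with at most 8 reads in that library.

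The highest level belonged to SERK2, a co-receptor that in *Arabidopsis* acts in brassinosteroid signalling and anther development, at 150 RPKM in brown and 152 in yellow seeds. BAM1, a relative of the stem cell receptor CLAVATA1, had 92.6 RPKM in brown and 131 in yellow seeds. HSL2, a relative of HAESA that acts in floral organ shedding, had 120 RPKM in each library. IMK2, which is described as probably inactive, had 104 RPKM in brown and 84.7 in yellow seeds. These 4 exceeded 100 RPKM in a library. The 10 highest unigenes held 40.7% of the receptor reads in brown and 39.5% in yellow seeds, with ratios of yellow over brown between 0.818 and 1.42, and none of them passed the 2-fold threshold.

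**Figure D1:**
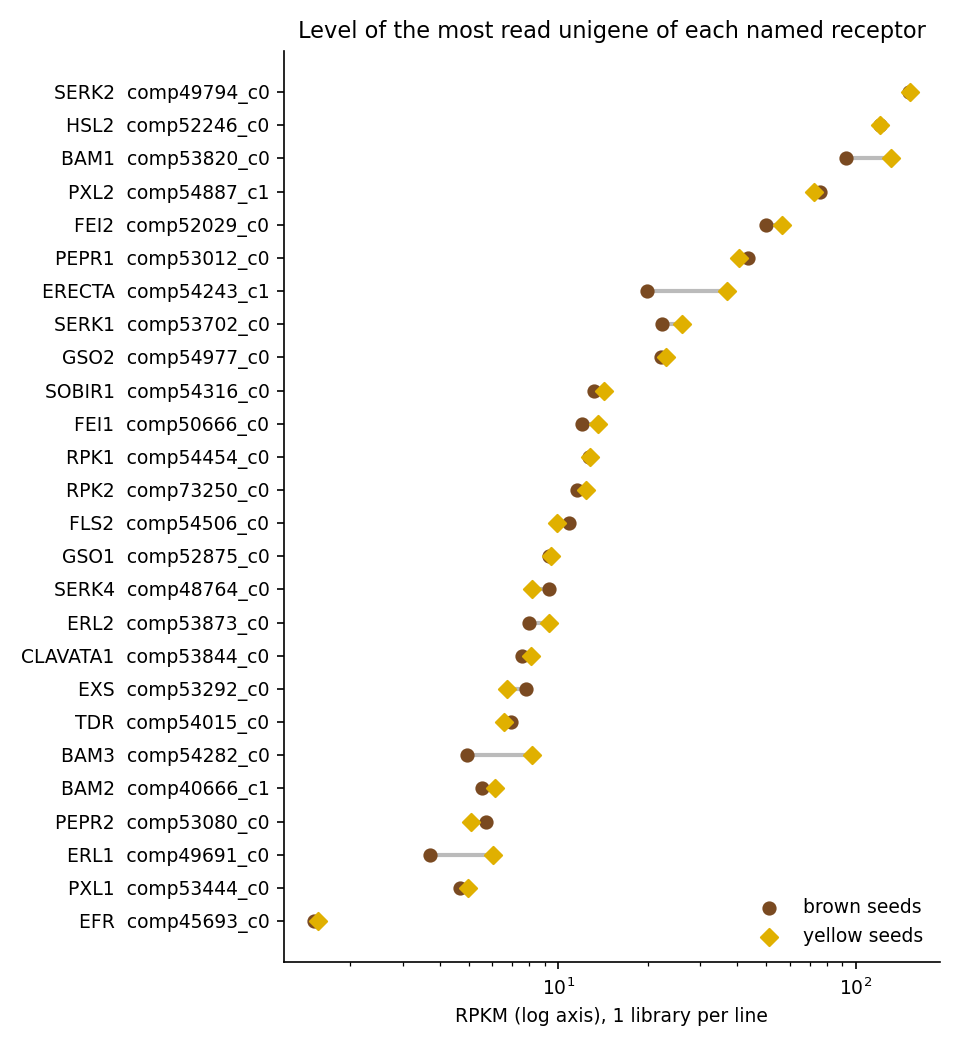
RPKM (log axis) of the most read unigene of each of 26 named receptors in the brown (circles) and yellow (diamonds) library, ordered by mean level, with 1 library per line. SERK2, HSL2 and BAM1 stand highest, EFR lowest, and the longest gaps between the libraries are at ERECTA, BAM1, BAM3 and ERL1.

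Few receptors were called beyond 2-fold between the libraries, as were few of all unigenes. Under a two-sided Fisher's exact test on the reads, adjusted over all 50366 unigenes and combined with a 2-fold threshold, 6 receptor unigenes were higher in yellow seeds, where 3.28% of all unigenes were. A further 5 were lower, where 1.47% of all unigenes were, and 277 passed in neither direction. Among the 185 with at least 20 reads the counts were 5 higher and 3 lower, beside 2.45% and 1.11% of unigenes with an assigned gene and as many reads. Without the fold threshold, 41 of the 288 were higher and 16 lower, beside 8.57% and 7.30% of all unigenes and 10.9% and 10.6% of those with an assigned gene. With 2-fold, 2.69% and 1.32% of unigenes with an assigned gene were called. An edgeR exact test that assumed a spread between libraries, as a coefficient of variation of 0.2, called 0 receptor unigenes in either direction, with 15 higher and 9 lower at an unadjusted p under 0.05, while it called 0.691% of all unigenes higher and 0.195% lower. At an assumed 0.4 it also called 0, with 1 and 3 at the unadjusted p, beside 0.175% and 0.0357% of all unigenes.

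The ratios lay more often above than below 1. The median log2 ratio of yellow over brown over the 185 unigenes, with 1 read added per library, was 0.19, with quartiles at −0.05 and 0.41. It was −0.01 over all 22247 unigenes with an assigned gene and at least 20 reads. Of the 185, 133 (71.9%) were above 0, against 48.7% of that background. With at least 1000 reads, where counting error is small, the median was 0.06 over 65 receptor unigenes and −0.02 over all with an assigned gene, and none of the 65 passed the 2-fold threshold. The medians were 0.19 for receptors on A chromosomes and 0.18 for those on C chromosomes.

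**Figure D2:**
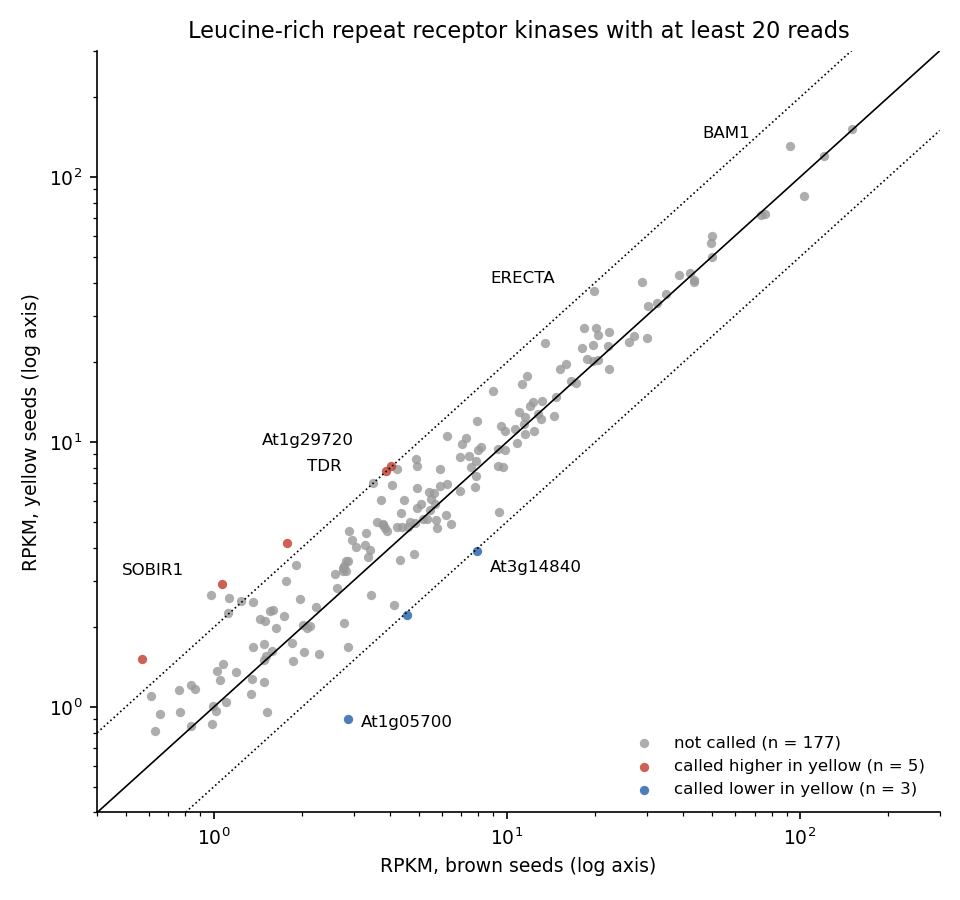
RPKM in brown against yellow seeds (both log axes) for the 185 receptor unigenes with at least 20 reads over both libraries; the solid line marks equal levels and the dotted lines a 2-fold difference. The 5 unigenes called higher and the 3 called lower have levels under 10 RPKM, while the highest unigenes, such as BAM1, lie within 2-fold.

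The RNA of some marker genes for the tissues of the seed also differed between the libraries, in both directions. Of 8 unigenes matched as embryo markers, 1 was called higher and 0 lower, with a median log2 ratio of 0.37, and 4 were higher and 1 lower at the adjusted p alone. Among all unigenes with an assigned gene, 2.69% were called higher and 1.32% lower. At the adjusted p alone these shares were 10.9% and 10.6%. LEC14B, taken by the name pattern, had 2026 and 2252 reads, a ratio of 1.13 (1.06 to 1.20). ABI3, a regulator of embryo maturation, had 1679 reads in the brown library and 2371 in the yellow one, a ratio of 1.43 (95% interval 1.35 to 1.53). NF-YB6, a LEC1-like regulator of embryo development, had 1622 and 2298 reads, a ratio of 1.44 (1.35 to 1.53), and a second NF-YB6 unigene rose from 16 to 76 reads, a ratio of 4.82 (2.79 to 8.85). The 1 lower unigene was WOX8, which acts in the early embryo, with 104 and 62 reads, a ratio of 0.605 (0.434 to 0.836), and FUS3, a regulator of embryo maturation, had 308 and 354 reads, a ratio of 1.17 (0.998 to 1.36).

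The 45 unigenes matched as seed coat markers had a median log2 ratio of −0.05 over 35 with at least 20 reads. Of the 45, 2 were called higher and 1 lower, and 5 were higher and 6 lower at the adjusted p alone. Unigenes with an assigned gene were called higher at 2.69% and lower at 1.32%, or at 10.9% and 10.6% by the adjusted p alone. The highest level belonged to Laccase-15, a seed coat oxidase, with a ratio of 1.16 (1.14 to 1.18), followed by rhamnose biosynthetic enzyme 1, at 0.966 (0.923 to 1.01), and the transporter TT12 on A09, at 0.812 (0.777 to 0.849). The higher calls were both TT12 unigenes, with 15 and 36 reads, a ratio of 2.44 (1.30 to 4.79), and with 4 and 17 reads, a ratio of 4.31 (1.41 to 17.6). GLABRA 2 on A07 had a ratio of 0.712 (0.663 to 0.766) and TT16 on A03 one of 0.599 (0.514 to 0.696). The 12 endosperm unigenes had a median of 0.11 over 7, with 0 called by Fisher's exact test and 2 higher and 0 lower at the adjusted p alone. These were FIE, a polycomb protein, at 1.08 (1.03 to 1.14), and HAIKU2, a receptor kinase of endosperm growth, at 1.17 (1.08 to 1.26), while a second FIE unigene was at 0.718 (0.533 to 0.965). The part of these tissues in the receptor ratios was not tested.

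Among the co-receptors, 7 unigenes were described as SERK, 5 of them with at least 20 reads, and none was called. At the adjusted p alone 1 was higher and 0 lower. Among unigenes with an assigned gene, 2.69% were called higher and 1.32% lower. At the adjusted p alone these shares were 10.9% and 10.6%. SERK2 on C09 had 4346 reads in the brown and 4332 in the yellow library, a ratio of 1.01 (0.969 to 1.06). SERK1 on C06, which in *Arabidopsis* acts in anthers and marks cells competent to form embryos, had 1268 and 1458 reads, a ratio of 1.17 (1.08 to 1.26). SERK4 had 324 and 279 reads, a ratio of 0.874 (0.742 to 1.03). Unigenes described as BRASSINOSTEROID INSENSITIVE 1-associated receptor kinase 1 (BAK1) fell outside the rule. The most read of these had 1197 and 1086 reads, a ratio of 0.920 (0.847 to 1.00). Another was assigned to the same gene as the SERK4 unigene, with 88 and 62 reads, a ratio of 0.715 (0.508 to 1.00). The levels of SERK2 and SERK4 did not differ beyond counting error between the libraries.

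The ERECTA family had the highest median of the receptor classes. ERECTA and its relatives ERL1 and ERL2 control organ growth and the spacing of stomata in *Arabidopsis*, where they bind the secreted peptides EPF and EPFL. The 9 unigenes of the family stood for 6 genes. Of the 9, 8 had at least 20 reads and all 8 of these were above 0, with a median log2 ratio of 0.51. However, none of the 8 passed the 2-fold threshold and 3 passed the adjusted p alone. At that p alone, 10.9% of unigenes with an assigned gene were higher and 10.6% lower. With 2-fold these shares were 2.69% and 1.32%. Of those with at least 20 reads, 48.7% were above 0. ERECTA on C08 (C08:31681647-31686942 of the Darmor-*bzh* genome, plus strand) had 1639 reads in the brown library and 3005 in the yellow one, or 19.9 and 37.0 RPKM. Its ratio of 1.86 (1.75 to 1.98; adjusted p = 1.76e-92, Fisher's exact test) lay just inside the 2-fold threshold. ERL1 on C03 had 226 and 363 reads, a ratio of 1.63 (1.38 to 1.93), and its gene, over 3 unigenes, had 252 and 407 reads, a ratio of 1.64 (1.40 to 1.93). ERL2 on A10 had 665 and 764 reads, a ratio of 1.17 (1.05 to 1.30). The summed reads of the class had a ratio of 1.63, and of 1.29 without the ERECTA unigene on C08. A second ERECTA unigene and an ERL1 unigene were assigned to the same gene on A09 and had the same 71 and 83 reads, a ratio of 1.19 (0.854 to 1.65).

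CLAVATA1 and its relatives are the receptors of CLE peptides. CLAVATA1 limits the number of stem cells in the shoot meristem of *Arabidopsis*, the BAM receptors are close relatives of it, and TDR (also PXY), with its relatives PXL1 and PXL2, acts on vascular stem cells. The 14 unigenes stood for 10 genes, and 5 of them were assigned to the same gene on C07, so that gene weighs more in the median. The median log2 ratio of the 14 unigenes was 0.40, 11 of them were above 0, 0 were called and 4 passed the adjusted p alone. At that p alone, 10.9% of unigenes with an assigned gene were higher and 10.6% lower. With 2-fold these shares were 2.69% and 1.32%. Of those with at least 20 reads, 48.7% were above 0. BAM1 on A06 (A06:17138208-17141292, plus strand) had 7875 reads in the brown and 10993 in the yellow library, a ratio of 1.42 (1.38 to 1.46). BAM3 had 326 and 530 reads, a ratio of 1.65 (1.43 to 1.90), and BAM2 had 111 and 121, a ratio of 1.11 (0.848 to 1.44). CLAVATA1 itself, on C06, had 631 and 664 reads, a ratio of 1.07 (0.956 to 1.19). PXL2 on A01, at 76.0 and 72.5 RPKM, had a ratio of 0.954 (0.921 to 0.988), and PXL1 had one of 1.07 (0.923 to 1.23). The BAM1 unigene carried the summed ratio of the class, which was 1.22 with it and 1.04 without it.

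The pair of TDR unigenes differed from each other. TDR on A09 had 508 reads in the brown library and 472 in the yellow one, a ratio of 0.943 (0.830 to 1.07). TDR on C07 (C07:35426477-35429738, minus strand), picked out after its values were seen, had 287 and 565 reads, a ratio of 2.00 (1.73 to 2.31), which fell just short of the 2-fold threshold. Together these 2 genes had levels of 3.50 to 6.99 RPKM.

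The receptors GSO1, GSO2, RPK1, RPK2 and EMS1 (named EXS in the descriptions) take part in embryo and anther development in *Arabidopsis*. GSO1 and GSO2 act in the embryonic cuticle and the Casparian strip, RPK1 and RPK2 in embryo patterning, and EMS1 in the tapetum of the anther. None of their 19 unigenes was called, 0 were higher and 2 lower at the adjusted p alone, and the median log2 ratio was 0.02 over 17. At that p alone, 10.9% of unigenes with an assigned gene were higher and 10.6% lower. With 2-fold these shares were 2.69% and 1.32%. GSO2 on C02 had 2446 reads in the brown and 2511 in the yellow library, a ratio of 1.04 (0.985 to 1.10). RPK1 had 567 and 562 reads, a ratio of 1.01 (0.893 to 1.13), and RPK2 on A01 had 1031 and 1095, a ratio of 1.08 (0.989 to 1.17). EXS on C09 had 574 and 490 reads, a ratio of 0.866 (0.766 to 0.979). The lower unigenes at the adjusted p were EXS on A10, with 178 and 102 reads and a ratio of 0.581 (0.451 to 0.746), and GSO1 on A08, with 869 and 706 reads.

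Immune receptors were present in both libraries. FLS2, the receptor of bacterial flagellin, had 833 reads in the brown library and 749 in the yellow one, a ratio of 0.912 (0.825 to 1.01). PEPR1 and PEPR2 perceive the plant's own Pep danger peptides. PEPR1, at 43.4 and 40.3 RPKM, had a ratio of 0.930 (0.888 to 0.974), and PEPR2 had one of 0.888 (0.782 to 1.01). EFR, the receptor of the bacterial protein EF-Tu, had 59 and 60 reads in its most read unigene, a ratio of 1.03 (0.708 to 1.50), and the 2 unigenes of that gene had 117 and 108, a ratio of 0.937 (0.714 to 1.23). SOBIR1, an adaptor of receptor-like proteins, had 1045 and 1113 reads in its most read unigene, on C03, a ratio of 1.08 (0.992 to 1.18). A second SOBIR1 unigene, of 914 bp and assigned to another gene, was called higher with 23 and 62 reads, a ratio of 2.73 (1.67 to 4.63). It was the only call among the 13 unigenes of this class. Among all unigenes with an assigned gene, 2.69% were called higher and 1.32% lower.

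FEI1 and FEI2 act in cellulose deposition, FEI2 also in seed coat mucilage of *Arabidopsis*. All 5 FEI unigenes were above 0, with a median log2 ratio of 0.19 and 0 calls. At the adjusted p alone 1 was higher and 0 lower. Among unigenes with an assigned gene, 2.69% were called higher and 1.32% lower. At the adjusted p alone these shares were 10.9% and 10.6%. Of those with at least 20 reads, 48.7% were above 0. FEI2 on C04 had 2873 reads in the brown and 3220 in the yellow library, a ratio of 1.14 (1.08 to 1.20), and FEI1 on C09 had 639 and 717, a ratio of 1.14 (1.02 to 1.27). HSL2 on A09 had 11555 and 11363 reads, a ratio of 0.998 (0.972 to 1.02), so that its level did not differ beyond counting error despite the depth.

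**Figure D3:**
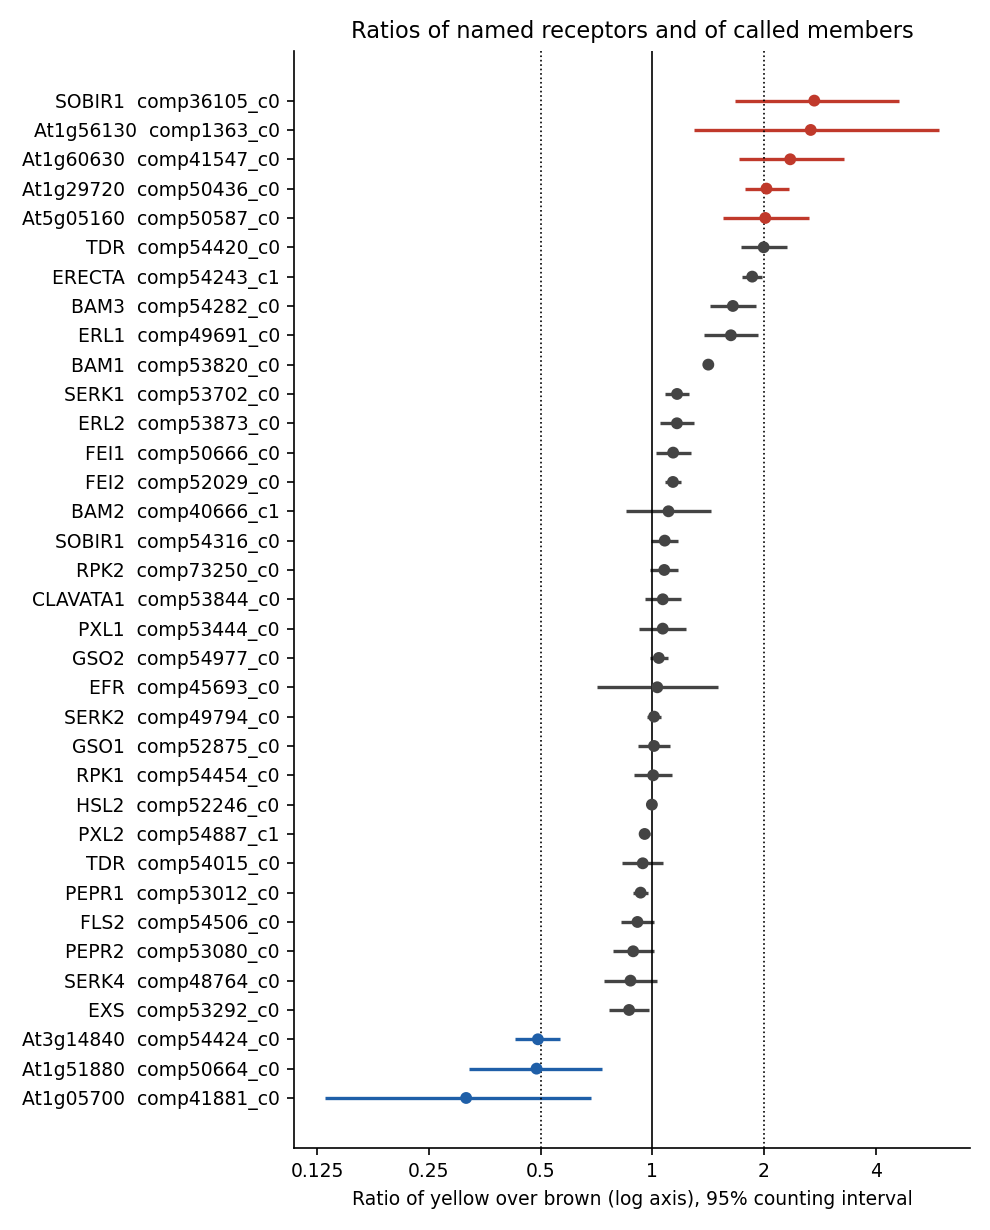
Ratio of yellow over brown with its 95% interval (log axis, counting error only) for the 26 named receptors, the TDR unigene on C07 and the called unigenes with at least 20 reads; red marks unigenes called higher, blue those called lower, and dotted lines the 2-fold threshold. ERECTA and the C07 TDR unigene lie just inside the line at 2, and HSL2, RPK1, GSO1 and SERK2 lie at 1.

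Receptors described as inactive or probably inactive made up 32 unigenes. One was called higher and none lower, while 10 were higher and 2 lower at the adjusted p alone. Unigenes with an assigned gene were called higher at 2.69% and lower at 1.32%, or at 10.9% and 10.6% by the adjusted p alone. The called unigene, At1g60630 on A01, had 56 reads in the brown library and 130 in the yellow one, a ratio of 2.36 (1.71 to 3.28), and the 3 unigenes of its gene together had 88 and 178, a ratio of 2.05 (1.58 to 2.68). IMK2 had 7203 and 5807 reads, a ratio of 0.818 (0.790 to 0.847), and At3g28040 on A09 had 3938 and 4659, a ratio of 1.20 (1.15 to 1.25). At3g03770 had 1017 and 1470 reads, a ratio of 1.47 (1.35 to 1.59). The median log2 ratio of the class was 0.27 over 25 unigenes.

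Receptors named by a locus and not described as inactive made up 173 of the 288 unigenes. Of these, 4 were called higher and 4 lower, where 2.69% and 1.32% of unigenes with an assigned gene were, and the median log2 ratio was 0.15 over 91. At1g29720 on C05 (C05:25087066-25094012, plus strand) had 322 reads in the brown and 645 in the yellow library, a ratio of 2.03 (1.78 to 2.33). At5g05160 on C09 had 87 and 173 reads, a ratio of 2.02 (1.55 to 2.64), and its other gene, on A10, had 9 and 24, a ratio of 2.71 (1.21 to 6.61), which did not pass the adjusted p (0.0537, Fisher's exact test). At1g56130 on C07 had 11 and 29 reads in the called unigene, a ratio of 2.67 (1.30 to 5.93). The 7 unigenes of that gene together had 41 and 53 reads, a ratio of 1.31 (0.856 to 2.02), so the call did not hold over the gene.

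The lower calls were led by At3g14840, another receptor named by its locus. At3g14840 on A01 (A01:20167183-20173288, minus strand) had 617 reads in the brown library and 299 in the yellow one, a ratio of 0.492 (0.427 to 0.565), and had the most reads of the lower calls. At1g51880 on C06 had 77 and 37 reads, a ratio of 0.488 (0.320 to 0.731). With a neighbouring unigene of the same gene, described as At2g19210, it came to 270 and 149 reads. That ratio of 0.560 (0.455 to 0.686) lay inside the 2-fold threshold. At1g05700 on A08 had 29 and 9 reads, a ratio of 0.315 (0.131 to 0.683). The 2 unigenes of its gene together had 194 and 105, a ratio of 0.549 (0.429 to 0.700), also inside 2-fold. Of the calls on counts of 0, an At1g29720 unigene on A07 had 0 and 7 reads, at least 2.37-fold higher when 3 reads were set for the 0. Its 95% lower limit was a ratio of 1.46. An At1g29720 unigene on C07 and an RKF3 unigene each had 8 and 0 reads, at least 2.63-fold lower on the same floor, with a 95% upper limit of 0.594. Neither of these 2 lower calls held over its gene. The 2 unigenes of the At1g29720 gene had 11 and 4 reads, a ratio of 0.369 (0.0857 to 1.25). The 3 of the RKF3 gene had 33 and 26, a ratio of 0.799 (0.459 to 1.38).

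**Figure D4:**
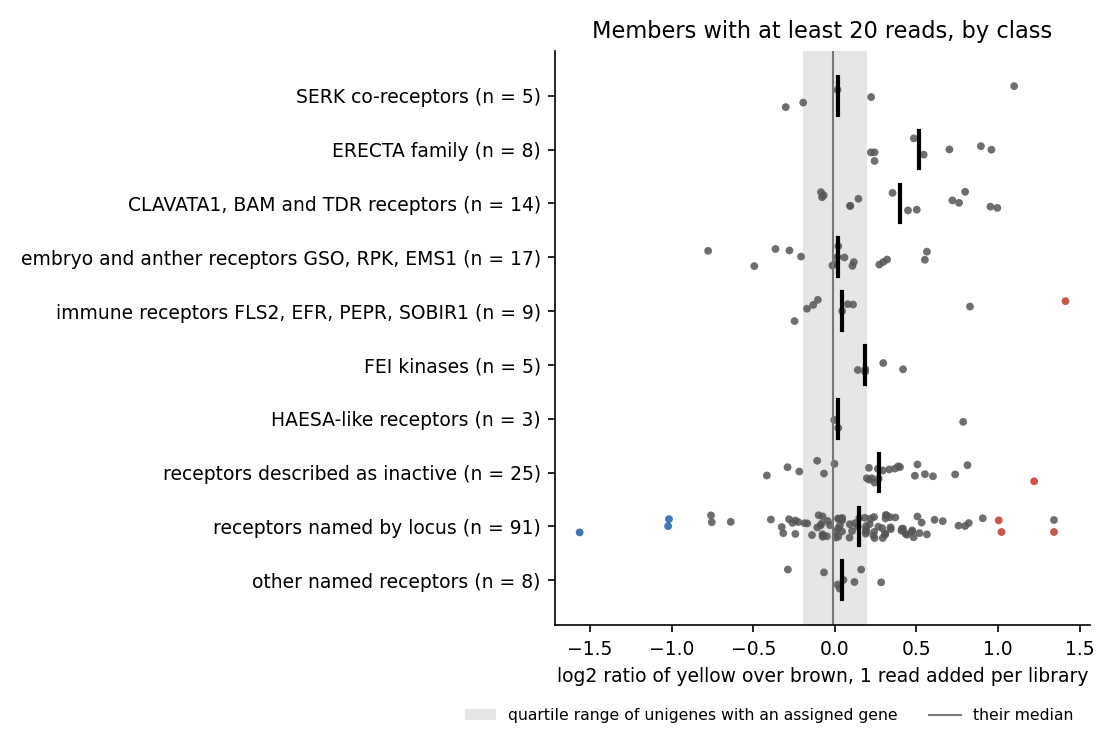
log2 ratio of yellow over brown, with 1 read added per library, for each receptor unigene with at least 20 reads by class (points, spread vertically for sight), with the class median as a black bar, and the quartile range and median of all unigenes with an assigned gene as a grey band and line. The ERECTA family and the CLAVATA1, BAM and TDR class have the highest medians, 0.51 and 0.40, and red and blue points mark calls. Unigenes of the same gene are shown as separate points.

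Copies of the same description were compared where 2 genes each had a unigene with at least 100 reads. This gave 31 pairs, chosen by reads and not by ratio. Where more than 2 genes qualified, the 2 with the most read unigenes were taken. A pair was therefore not always an A and a C copy, and both At2g14440 unigenes were on C05. The 95% intervals of the 2 ratios overlapped in 19 pairs and did not in 12. Pairs outside the receptors were not counted, so there is no share to set beside these counts, and they are not read as a trait of the receptors. The intervals cover counting error only, which is small for unigenes with many reads. At1g29720 had a ratio of 2.03 on C05 and of 1.14 (0.964 to 1.35) on C07. At1g66830, described as inactive, had a ratio of 1.76 (1.61 to 1.92) on A06 and of 0.928 (0.828 to 1.04) on A04. GSO1 had a ratio of 1.01 on C04 and of 0.824 (0.745 to 0.911) on A08. In At4g36180, by contrast, the copy on A01 had a ratio of 1.39 (1.32 to 1.46) and the unplaced one 1.34 (1.26 to 1.42).

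The partners of the receptors were described from lists of names. Of 43 unigenes for peptide ligands, 4 were called higher and 0 lower, with a median log2 ratio of 0.25 over 23. Among all unigenes with an assigned gene, 2.69% were called higher and 1.32% lower. EPFL9 (also stomagen), which promotes stomata in *Arabidopsis*, rose from 9 reads in brown to 45 in yellow seeds, a ratio of 5.07 (2.45 to 11.8). EPF2, which limits stomata through the ERECTA family, rose from 7 to 37 reads, a ratio of 5.36 (2.36 to 14.3). Elicitor peptide 6 rose from 29 to 65 reads, a ratio of 2.27 (1.45 to 3.65). The growth peptide precursor Phytosulfokines 1 had the highest level, at 405 and 582 RPKM, with a ratio of 1.44 (1.38 to 1.50). Phytosulfokines 5 had 636 and 486 reads, a ratio of 0.775 (0.688 to 0.874), and Elicitor peptide 5 had 585 and 687, a ratio of 1.19 (1.07 to 1.33).

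Other leucine-rich repeat receptors outside the rule counted 96 unigenes, 6 called higher and 0 lower, with a median log2 ratio of 0.07 over 51. Of the 51, which had at least 20 reads, 1 was called higher and 0 lower. Unigenes with an assigned gene and as many reads were called at 2.45% and 1.11%. The other higher calls rested on fewer than 20 reads each. TMK1, which acts in auxin signalling, had 5362 and 5810 reads in its most read unigene, a ratio of 1.10 (1.06 to 1.14), and a second TMK1 unigene one of 1.08 (1.01 to 1.15). STRUBBELIG-RECEPTOR FAMILY 8 had 1811 and 2284 reads, a ratio of 1.28 (1.20 to 1.36). Of 23 brassinosteroid signalling unigenes, 1 was called higher and 0 lower, with a median of 0.09, and 6 were higher and 1 lower at the adjusted p alone. Beside both lists, 2.69% of unigenes with an assigned gene were called higher and 1.32% lower. At the adjusted p alone these shares were 10.9% and 10.6%. BZR1, a transcription factor of the pathway, had a ratio of 1.03 (0.968 to 1.09), and BIN2 (Shaggy-related kinase eta), its inhibitor, also 1.03 (0.974 to 1.08). The 1 lower unigene was BES1/BZR1 homolog 4, with 2896 and 2120 reads, a ratio of 0.743 (0.702 to 0.786). The called unigene was BRI1-like 1, which was in both lists, with 33 and 70 reads, a ratio of 2.15 (1.40 to 3.36).

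The kinase cascade below the receptors had 34 matched unigenes, with a median of −0.05 over 21. The name pattern also took WUSCHEL-related homeobox proteins, which are transcription factors, and all of its 4 higher and 1 lower calls were WUSCHEL or WUSCHEL-related unigenes. The one of these with the most reads was WOX12, with 73 and 155 reads, a ratio of 2.15 (1.62 to 2.89). No kinase of the list was called. At the adjusted p alone 5 unigenes of the list were higher and 4 lower, beside 10.9% and 10.6% of unigenes with an assigned gene. With 2-fold these shares were 2.69% and 1.32%. MPK6 had a ratio of 0.974 (0.911 to 1.04), MKK5 of 0.963 (0.860 to 1.08) and MKK4 of 1.04 (0.947 to 1.14). MPK3 was lower at the adjusted p alone, with 496 and 403 reads, a ratio of 0.824 (0.721 to 0.942). With patterns narrowed after the values were seen, the cascade held 15 unigenes, 2 called higher (both WUSCHEL) and 0 lower, with a median of −0.14. The embryo list without LEC14B then held 7, with 1 called higher, 0 lower and a median of 0.52.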

How the data were processed

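RNA from 1 library of whole seeds per line was sequenced by the authors, who assembled unigenes with Trinity. Their aligner and counter were not named in any source used. The table deposited by the authors holds an expected count, estimated from reads mapped to the unigenes and not always whole, and an RPKM value for each unigene and library, beside Swiss-Prot, Pfam and *B. napus* gene annotations, and the authors scaled RPKM to unigene length and library reads. Gene positions are those of the Darmor-*bzh* annotation in the table.

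Counts were rounded. Each unigene was tested against all other reads with a two-sided Fisher's exact test (SciPy 1.17.1). P-values were adjusted by Benjamini-Hochberg across the 50366 unigenes, and calls needed an adjusted p under 0.05 with a ratio beyond 2-fold. Ratios used library totals, with 95% exact binomial intervals. The tests were checked on simulated counts with no spread between libraries. Their changes were larger than 2-fold and set only in unigenes of at least 100 reads. This check therefore does not cover ratios near 2-fold, unigenes with few reads or a spread between libraries. Alternatives used edgeR 4.0.16 and DESeq2 1.42.0. Named were all called unigenes, the 10 highest by RPKM, up to 4 per class, and the most read unigene of each named receptor, and in other lists called unigenes with at least 20 reads and the 3 highest. Copies shown as pairs, second unigenes of a gene, the BAK1 unigenes, WOX8, FUS3, GLABRA 2, TT16 and MPK3 were picked after their values were seen. The receptors and lists were chosen with earlier results of these data known. No column of per-sample values was left out.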

Additional observations from a re-analysis of the deposited data

How the results depend on the processing

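No paired analysis was possible because each line had 1 library, and for the same reason no replicate could be left out. With TMM scaling, which raised every log2 ratio by 0.0066, and median-ratio scaling, which lowered it by 0.021, 7 and 4 receptor unigenes were higher. The lower count, 5 as reported, was 3 with median-ratio scaling, 3 with the DEGseq formula, 3 with only unigenes of at least 20 reads and 2 at an adjusted p under 0.01. At an adjusted p alone the counts were 41 higher and 16 lower. An edgeR exact test with an assumed coefficient of variation of 0.2 between libraries called 0 higher and 0 lower, where 0.691% and 0.195% of all unigenes were called, with 15 higher and 9 lower at an unadjusted p under 0.05. At 0.4 it also called 0 and 0, beside 0.175% and 0.0357% of all unigenes, with 1 and 3 at the unadjusted p. No receptor call held once such a spread was assumed. The median log2 ratio stayed positive, between 0.14 and 0.19 under the other settings and at 0.059 with at least 1000 reads, a minimum chosen after the values were seen. The C07 TDR unigene was called with TMM scaling, and At5g05160 on C09, at 1.99, was not called with median-ratio scaling, nor were the 3 unigenes with a count of 0. Ratios near 1 crossed it with scaling: SERK2 to 0.997, At5g37450 to 0.989, RPK1 to 0.991 and GSO1 to 0.996 with median-ratio scaling, and HSL2 to 1.002 and At5g48380 to 1.003 with TMM. Of 112 values of 56 named unigenes under these scalings, 102 kept direction and call.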

Other observations

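Another 26 unigenes matched the receptor descriptions but had no assigned *B. napus* gene. Of these, 8 had at least 20 reads, with a median log2 ratio of −0.31, 2 of them above 0, and 0 were called by Fisher's exact test with 0 at the adjusted p alone.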
